A study of Homo sapiens with 6 samples.

Results

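The clusters annotated as ribosomal RNA (rRNA) were taken from the cluster tables of 5 PAR-CLIP libraries by their annotation alone, leaving out those annotated as mitochondrial rRNA. They numbered 1582 of the 1717084 clusters of these libraries, with 442 in G20, 336 in G35, 326 in G45, 102 in HuR replicate 1 and 376 in HuR replicate 2. In the Total library 208 clusters overlapped them on the same strand. The 6 libraries together held 1917686 clusters. A cluster is a short genomic interval that the PARalyzer program called from T-to-C conversions, and it lies within a longer site made of all overlapping reads. The paper defines clusters by at least 5 overlapping reads and at least 2 conversion locations, although some deposited clusters had fewer locations.

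All libraries came from HEK293, an embryonic kidney cell line, grown with 4-thiouridine (4SU), irradiated with UV at 365 nm and treated with RNase T1, a nuclease that cuts after guanosine. G20, G35 and G45 were background libraries from cells expressing FLAG-tagged GFP, which is not an RNA-binding protein, and were cut from 1 control gel at about 20, 35 and 45 kDa after immunoprecipitation with the FLAG M2 antibody. The 2 HuR libraries came from cells expressing FLAG-tagged HuR, a protein that binds U-rich elements of mRNAs and introns, and were precipitated with the same antibody. Total came from lysates handled likewise but without immunoprecipitation, digested with proteinase K and depleted of rRNA. Each slice and Total was 1 library, so that differences among them have no replicate check, and the labels do not say whether the 2 HuR replicates were separate cultures.

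Human rRNA is transcribed by RNA polymerase I as a 45S precursor that is cut into the 18S RNA of the small ribosomal subunit and the 5.8S and 28S RNAs of the large subunit, while 5S RNA is made apart by RNA polymerase III. The genes stand in tandem arrays on the short arms of the acrocentric chromosomes, which were not assembled in hg19, and the assembled chromosomes hold many partial copies that differ from the active genes at some bases. A mapper that keeps uniquely placed reads can therefore assign an rRNA read only where the genome it searched holds a copy that resembles it, and a base at which the copy has T and rRNA has C is read as a T-to-C conversion when the read comes from rRNA.

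The 1582 clusters merged into 560 loci on 25 chromosomes, the mitochondrial one included, 268 on the plus and 292 on the minus strand, with a median length of 29 bp and a range of 8 to 462 bp. Each locus was aligned to the 45S gene of an unplaced contig of GRCh37 and to the 5S gene. Of the 560 loci, 289 matched 28S RNA best, 96 matched 18S, 95 matched 5S and 11 matched 5.8S, while 68 short loci had no match and 1 lay in the mitochondrial 16S gene MT-RNR2. All 491 matched loci had the sense orientation of rRNA. Their median identity was 95% for 28S, 95.1% for 18S, 96.6% for 5S and 90.2% for 5.8S. A protein-coding gene spanned 260 of the loci on either strand, and 186 lay outside every annotated gene.

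The following copies show the loci on which the conversion results turn. Each is the GRCh37 sequence on the locus strand, 5′ to 3′, followed by the matching stretch of the 45S gene, and capitals mark the bases at which the copy has T and rRNA has C. They are L34, L10, L5 and L9 (whole loci) and a 61-base stretch of L6, at chr20:17469745-17469784 (+), chr19:24184080-24184153 (-), chr17:33478134-33478228 (-), chr2:133013066-133013232 (-) and chr21:9827285-9827345 (+). L4, at chr19:36066505-36066569 (+), is shown as a copy without such a base.
L34: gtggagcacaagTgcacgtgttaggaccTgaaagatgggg
28S opposite L34: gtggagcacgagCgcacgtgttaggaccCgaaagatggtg
L10: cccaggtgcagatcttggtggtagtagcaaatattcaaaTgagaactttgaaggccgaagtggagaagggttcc
28S opposite L10: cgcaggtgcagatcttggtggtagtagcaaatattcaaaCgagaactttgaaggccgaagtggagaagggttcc
L5: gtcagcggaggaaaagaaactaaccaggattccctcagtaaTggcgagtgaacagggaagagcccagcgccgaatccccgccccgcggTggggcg
28S opposite L5: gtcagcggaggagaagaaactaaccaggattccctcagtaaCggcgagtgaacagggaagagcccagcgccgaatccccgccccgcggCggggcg
L9: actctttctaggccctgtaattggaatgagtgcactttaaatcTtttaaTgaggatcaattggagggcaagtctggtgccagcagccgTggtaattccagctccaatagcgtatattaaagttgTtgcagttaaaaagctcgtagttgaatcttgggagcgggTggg
18S opposite L9: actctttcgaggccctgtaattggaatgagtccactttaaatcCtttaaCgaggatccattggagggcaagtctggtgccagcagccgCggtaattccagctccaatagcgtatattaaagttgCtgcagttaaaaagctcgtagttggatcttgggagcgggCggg
L6: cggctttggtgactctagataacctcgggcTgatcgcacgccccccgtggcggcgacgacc
18S opposite L6: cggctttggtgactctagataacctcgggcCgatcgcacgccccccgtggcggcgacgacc
L4: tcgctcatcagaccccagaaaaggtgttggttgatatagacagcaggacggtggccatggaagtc

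The first comparison asked how much of each library rRNA clusters held. Their share of library reads was 73.8% in G20, 20.1% in G35, 24.3% in G45, 1.21% in HuR replicate 1, 2.84% in HuR replicate 2 and 41.8% in Total, although Total had been depleted of rRNA. Of the reads in clusters alone, they held 89.7% in G20, 24.6% in G35, 29.4% in G45, 5.34% in HuR replicate 1, 3.91% in HuR replicate 2 and 62.7% in Total, which turned the order of the HuR replicates and raised their mean to 4.62%. The 3 slices lay above both HuR libraries without overlap, and G20 stood apart from the other slices. The mean was 39.4% over the 3 slices and 2.03% ± 1.15 (SD, n = 2) for HuR, a difference of 37.4 points (p = 0.2, two-sided exact permutation test over 5 libraries, the smallest p this design allows). These shares rested on 28501810 reads in G20, 1245112 in G35, 1835746 in G45, 115710 in HuR replicate 1, 913205 in HuR replicate 2 and 15028566 in Total, of library totals between 6187300 and 38644636 reads. Counting error was small at this depth, as the 95% Wilson interval for HuR replicate 1 ran from 1.21% to 1.22%. A share cannot tell more rRNA in a library from less of all other RNA, nor, in pooled cells, fewer cells from less RNA per cell. The clusters were few but deep, being 1.14% of the clusters of G20 and 0.0248% of those of HuR replicate 2, with medians of 42.5 to 133 reads per cluster across the libraries against 7 to 10 for all other clusters.

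**Figure D1:**
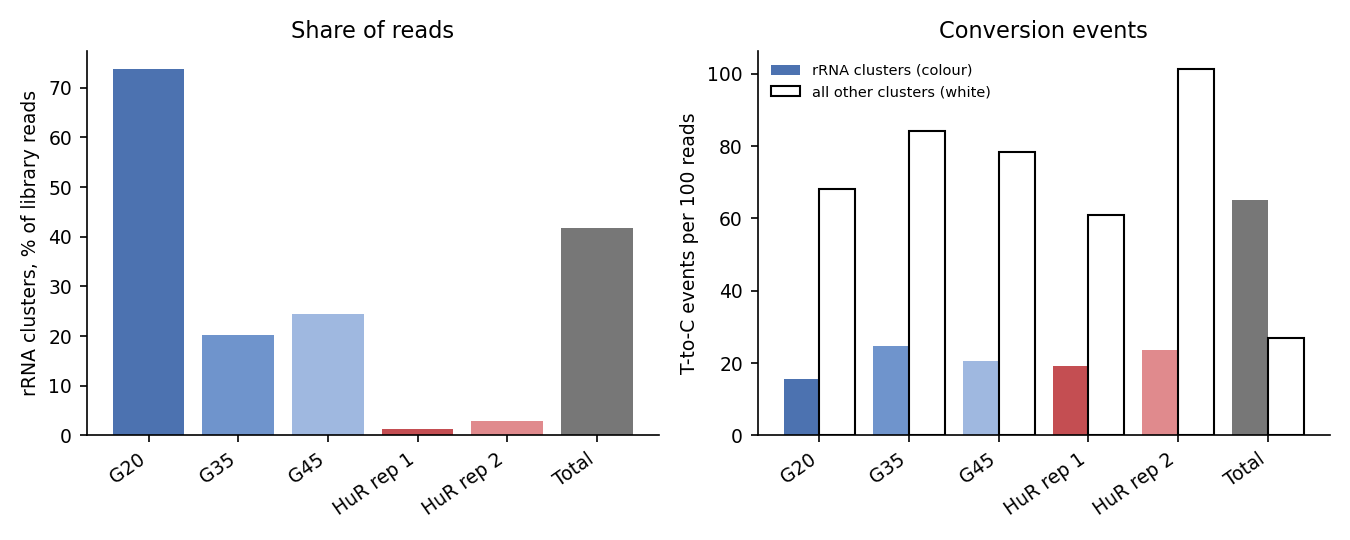
Left, the share of library reads (percent) in rRNA clusters for each of the 6 libraries, 1 bar per library. Right, T-to-C conversion events per 100 reads in rRNA clusters (coloured bars) and in all other clusters (white bars); the rRNA bar is lower in the 5 PAR-CLIP libraries, at 15.7 to 24.8, and higher in Total, at 65.1.

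Most of these reads carried 28S sequence. The 28S loci held 91.1% of rRNA cluster reads in G20, 75.9% in G35, 87.0% in G45, 47.0% in HuR replicate 1, 79.2% in HuR replicate 2 and 53.3% in Total. The 18S loci held 6.09%, 22.2%, 11.0%, 51.4%, 18.6% and 40.2% in the same order. HuR replicate 1 thus had more 18S than 28S reads, and so did Total once 90% identity over 80% of a locus was required, with 30.5% for 28S and 40.2% for 18S. The turn in Total rested on the 28S locus L12, described below, with 22.4% of the rRNA cluster reads of Total. L12 aligned over 63.3% of its length and was left unassigned under that requirement. The 2 HuR replicates differed from each other by more than HuR replicate 2 differed from any slice. The slices averaged 84.6% and HuR 63.1% ± 22.8 (SD, n = 2) for 28S (p = 0.4, two-sided exact permutation test over 5 libraries). Per nucleotide of the mature RNA, 28S exceeded 18S in G20, G35, G45 and HuR replicate 2, and 18S exceeded 28S in HuR replicate 1 (31.8 against 10.7 reads per nt) and in Total (3236 against 1580 reads per nt).

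The small rRNAs took little. The 5.8S loci held 2.67% of rRNA cluster reads in G20 and 0.823% to 1.87% in the other libraries, and 5S loci held 0.00106% in Total and 0.0966% to 0.530% in the PAR-CLIP libraries, although 95 loci on 24 chromosomes matched 5S. No locus matched a transcribed spacer of the precursor best, although L6 at the start of 18S and L15 at the start of 5.8S began within the spacer before them. The mitochondrial locus held 8823 reads in G20, 494 in G35, 1010 in G45, 202 in HuR replicate 1, 490 in HuR replicate 2 and 846049 in Total, the last being 5.63% of its rRNA cluster reads.

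**Figure D2:**
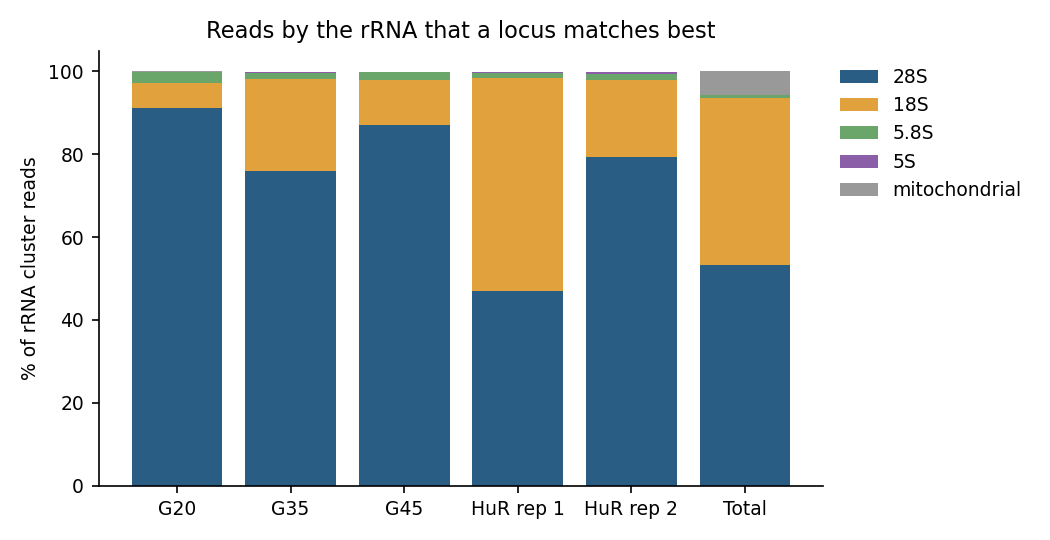
Stacked bars give the percent of rRNA cluster reads in each of the 6 libraries by the RNA that the locus matched best. The 28S segment is the largest in every library except HuR replicate 1, where 18S holds 51.4%, and in Total it falls from 53.3% to 30.5%, below 18S, when 90% identity over 80% of a locus is required. That fall is mostly the locus L12, which holds 22.4% of these reads in Total and is then left unassigned.

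How far a stretch of rRNA could be seen at all differed along the molecule. Of all 25-base words of 28S RNA, 68.7% were absent from the assembled chromosomes, 18.8% occurred once and 12.4% more than once. For 18S RNA 44.8% were absent and 38.0% occurred once, and for 5.8S 72.2% were absent. Every 25-base word of 5S RNA occurred more than once. The loci covered 65.4% of the 28S, 94.8% of the 18S and all of the 5.8S and 5S positions, with the copies' mismatches allowed. Whether the unplaced contig with the 45S gene was among the sequences the authors mapped to is not given in the sources used here, and clusters whose whole sequence occurs on it held 26.7% to 64.6% of rRNA cluster reads in the PAR-CLIP libraries and 3.40% in Total. Levels at different rRNA positions therefore cannot be compared as if each position could be mapped equally.

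**Figure D3:**
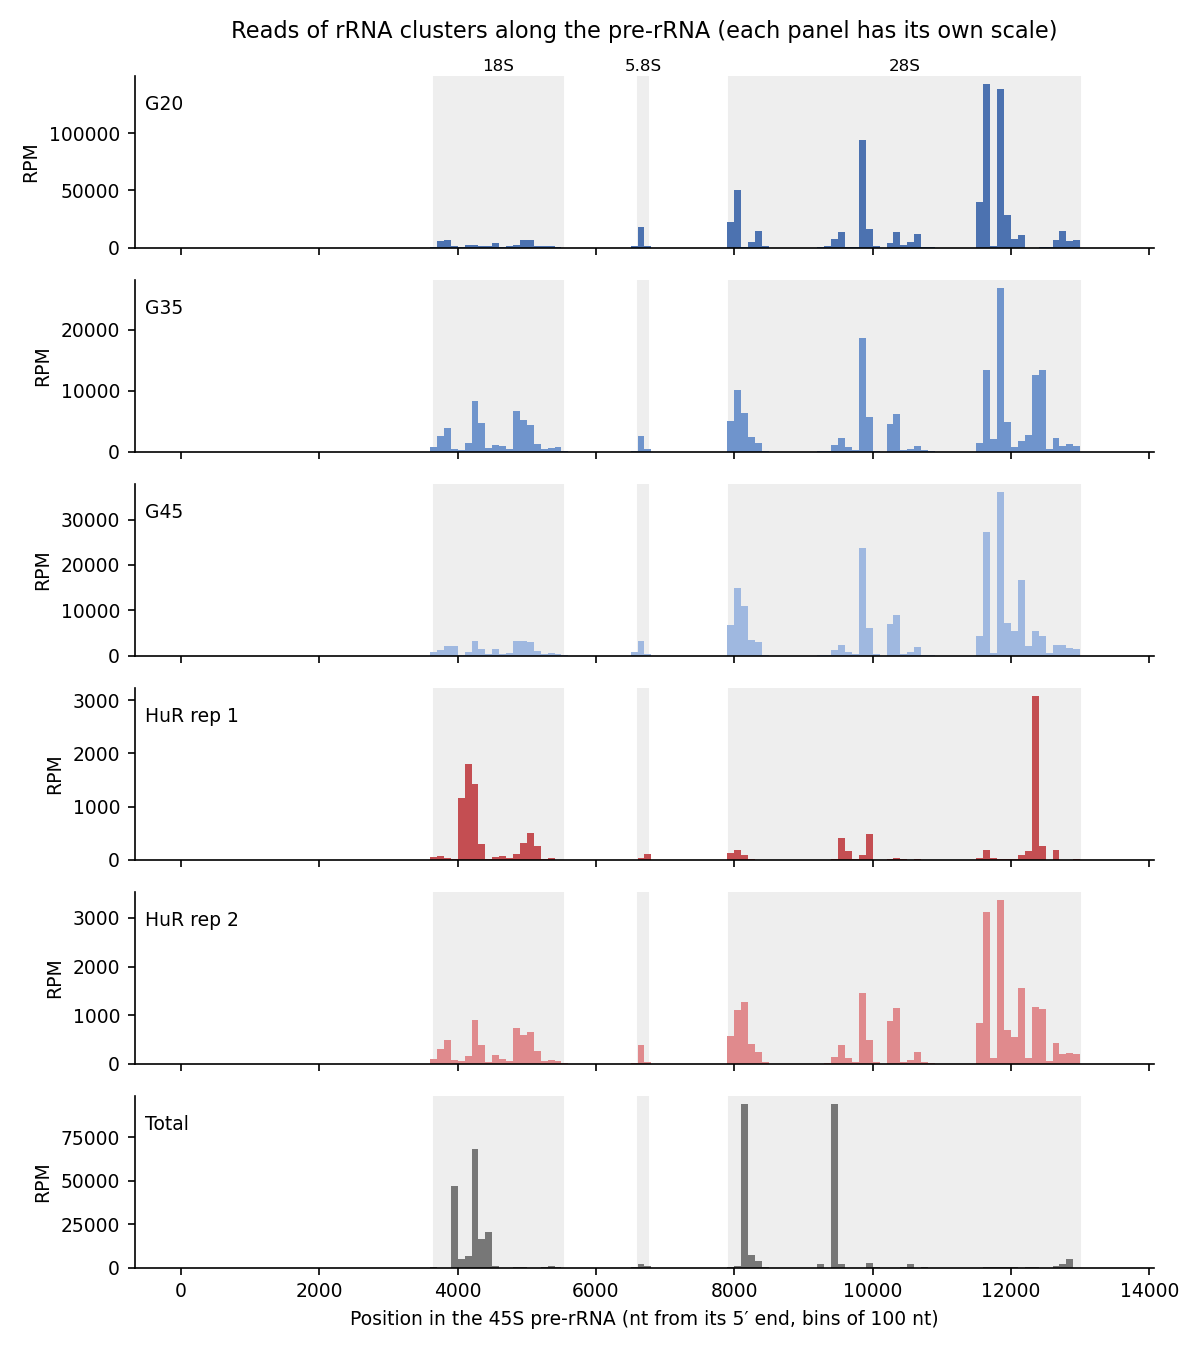
Reads per 1000000 library reads (RPM) of rRNA clusters in bins of 100 nt along the 45S precursor, 1 panel per library with its own scale; grey bands mark 18S, 5.8S and 28S. The slices and HuR replicate 2 share peaks in the 3′ part of 28S, HuR replicate 1 peaks in 18S and close to the 3′ end of 28S, and Total peaks in 18S and the 5′ part of 28S.

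Reads were concentrated at few loci. The 10 leading loci of each library held 83.4% of rRNA cluster reads in G20, 71.9% in G35, 77.6% in G45, 80.3% in HuR replicate 1, 69.8% in HuR replicate 2 and 93.9% in Total. The 2 loci with the largest mean share over the PAR-CLIP libraries, L1 (chr8:70602287-70602387, -) and L2 (chr8:70602556-70602613, -), lie in an intron of SLCO5A1, a gene of the organic anion transporter family, on its strand, and match 28S nucleotides 3891 to 3991 and 3665 to 3722. L1 stood at 160687 RPM (reads per 1000000 library reads) in G20, 29848 in G35, 41005 in G45, 16.4 in HuR replicate 1, 3776 in HuR replicate 2 and 308 in Total. L2 stood at 180891 RPM in G20, 13803 in G35, 31032 in G45, 199 in HuR replicate 1, 3831 in HuR replicate 2 and 200 in Total. Both were higher in every slice than in either HuR library. Counted by the longer sites, L1 stood at 283 RPM in HuR replicate 1 and 3855 in HuR replicate 2, while L2 kept its cluster values. Chromosome 8 as a whole held 47.8% of the rRNA cluster reads of G20 and 0.667% of those of Total.

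L3 (chr1:91852783-91853055, -) and L7 (chr1:91853057-91853151, -) are neighbours in an intron of HFM1, a meiotic DNA helicase gene, on its strand. L3 is identical to 28S nucleotides 4256 to 4528 and was the leading locus of HuR replicate 1. Its clusters stood at 27937 RPM in G35, 11286 in G45, 3351 in HuR replicate 1, 2239 in HuR replicate 2 and 768 in Total, and G20 had no cluster there. A site of G20 nonetheless spanned the pair, and its 101763 RPM were counted whole at L3, the locus it overlapped most. How its reads divided between L3 and L7 was not measured, so that the missing cluster need not mean a lack of reads. L7 stood at 14994 RPM in G20, 1379 in G35, 21374 in G45, 89.8 in HuR replicate 1, 2013 in HuR replicate 2 and 43.5 in Total, and its groups overlapped, since G35 lay below HuR replicate 2.

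L4 lies in an exon of a long non-coding RNA gene on chromosome 19 and matches 28S nucleotides 1924 to 1987. It stood at 109851 RPM in G20, 19516 in G35, 27656 in G45, 52.1 in HuR replicate 1, 1480 in HuR replicate 2 and 33.7 in Total. L5 lies opposite to an intron of UNC45B, which encodes a myosin chaperone, and stood at 72546, 14997, 21601, 304, 1668 and 1560 RPM in the same order of libraries. L10, outside annotated genes, stood at 7913, 7721, 13140, 25.2, 1611 and 127 RPM. All slices exceeded both HuR libraries at these loci.

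The leading 18S copies behaved less uniformly. L6 (chr21:9826968-9827429, +) covers the start of 18S, is the longest locus, and stood at 13854 RPM in G20, 7714 in G35, 6548 in G45, 1119 in HuR replicate 1, 1016 in HuR replicate 2 and 52489 in Total. Its neighbour L8 (chr21:9827437-9827576, +), identical to 18S nucleotides 433 to 572, stood at 2963, 604, 960, 1877 and 98.3 RPM in the 5 PAR-CLIP libraries and had no cluster in Total. Site reads cannot show whether Total lacked reads at L8, since a site was counted only at the locus it overlapped most. At L6 the sites of Total held 214367 RPM. L9, in an intron of ANKRD30BL, stood at 387 RPM in G20, 10121 in G35, 2742 in G45, 902 in HuR replicate 1, 829 in HuR replicate 2 and 77.9 in Total. At L8 and L9 the slices and the HuR libraries overlapped, and at L9 G20 was the lowest PAR-CLIP library.

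By clusters, the leading loci of Total were other copies. L12 (chr17:33478230-33478357, -), beside L5, stood at 93808 RPM in Total and between 83.9 and 10914 RPM in the PAR-CLIP libraries. Its clusters stood at 228 RPM in G20, but by the longer sites L12 stood at 109615 RPM there and L5 at 0. How those site reads divided between L5 and L12 was not measured, so that few cluster reads at L12 need not mean few reads. L34 stood at 82931 RPM in Total, 6696 in G20, 659 in G35, 1082 in G45, 7.14 in HuR replicate 1 and 85.4 in HuR replicate 2. L13 (chr16:33963040-33963171, +), a copy of 18S nucleotides 542 to 673, stood at 74730 RPM in Total and between 305 and 2153 RPM in the PAR-CLIP libraries. Together with the loci above these made 13 named loci, and at 8 of them every slice exceeded both HuR libraries.

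**Figure D4:**
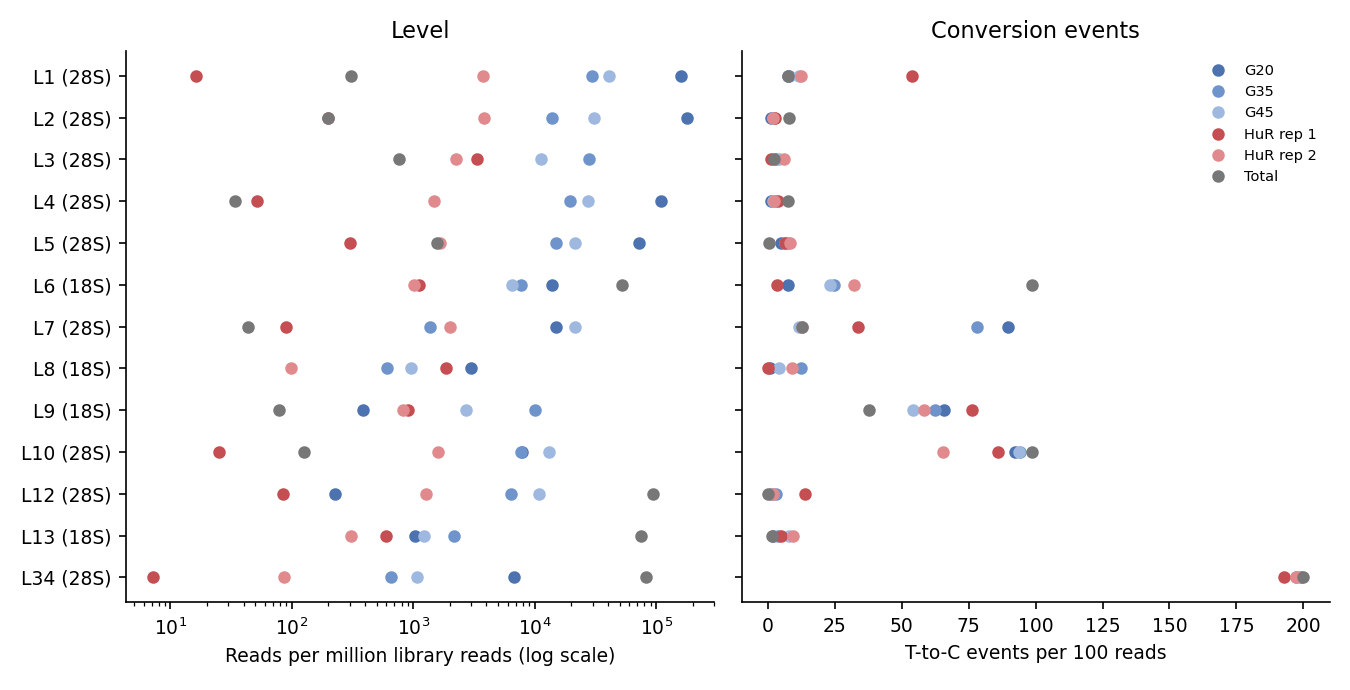
Left, reads per 1000000 library reads (log scale) of the clusters at the 13 named loci, 1 point per library; a library without a cluster there has no point. Right, T-to-C events per 100 reads at the same loci; L34 stands near 200 and L10 between 65.3 and 98.7, while L2, L3 and L4 stay under 8.

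Across all loci, those spanned by 1 site were joined into 505, and libraries were compared by size of difference, 4-fold or more in RPM, among loci with at least 25 reads. Of 385 joined rRNA loci with 25 reads over the 5 PAR-CLIP libraries, all 3 slices exceeded both HuR libraries at 231 (60%), against 1.9% of the 186795 loci of every annotation, and all 3 lay below both at 2 (0.519%), against 52.4%. Before the read minimum, the loci of every annotation came from 1717084 clusters, of which HuR replicate 2 supplied 1513157. Their shares therefore depend on loci picked mostly through that library, here and in the comparisons below. Against HuR replicate 1, 70.3% of 310 rRNA loci were higher in G20 (16.6% of all loci) and 5.16% were lower (48.9%). The corresponding values were 88.2% (42%) and 1.90% (26.6%) for G35 over 211 loci, and 84.5% (42.1%) and 1.93% (20.2%) for G45 over 207 loci.

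Against HuR replicate 2, 62.99% of 335 rRNA loci were higher in G20 (1.96% of all loci) and 3.58% were lower (90.1%). For G35 82.1% of 240 loci were higher (6.39%) and 1 locus was lower (17.5%), and for G45 71.8% of 248 loci were higher (7.65%) and 2 loci were lower (25.3%). In each of these 6 comparisons the higher share of rRNA loci exceeded that of all loci. The latter set was drawn mostly from clusters of HuR replicate 2, and the rRNA loci more from clusters of the slices. The median difference in log2 RPM (G20 minus HuR replicate 2) was -3.77 over all loci and 2.97 over the rRNA loci. Per 1000000 reads outside rRNA clusters these medians were -1.88 and 4.86.

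Among the slices, 25.1% of 334 rRNA loci were at least 4-fold higher in G20 than in G35 (4.04% of all loci) and 24.6% at least 4-fold lower (67%). G20 against G45 gave 20.1% in each direction over 329 loci, against 4.66% higher and 73.4% lower over all loci. This balance rested on the scaling, since per 1000000 reads outside rRNA clusters 53.8% of the rRNA loci were higher in G20 and 5.17% higher in G45 (17.5% and 46.6% of all loci), and 52.1% were higher in G20 and 12.6% higher in G35 (17.5% and 37.8%). G35 and G45 were closer, with 7.76% of 245 loci higher in G35 (9.89%) and 4.49% higher in G45 (10.9%). Between the HuR replicates 5.94% of 202 rRNA loci were higher in replicate 1 (3.64%) and 55.4% higher in replicate 2 (49%).

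Recurrence followed abundance. Of the 560 loci, 81 (14.5%) had an rRNA cluster in all 5 PAR-CLIP libraries, 135 in 4, 56 in 3, 95 in 2 and 193 in 1. Of the 1604475 loci into which the clusters of every annotation merged, 0.146% had a cluster in all 5 and 95.4% in 1. HuR replicate 2 alone supplied 1513157 of those clusters, against 38817 to 68049 for each other PAR-CLIP library, so that few of these loci could recur. The 81 loci rose to 213 without HuR replicate 1, whose table held 102 rRNA clusters, and to 273 when any site counted as present. The 81 loci held 94.6% of the rRNA cluster reads of G20, 79.0% of G35, 90.2% of G45, 72.3% of HuR replicate 1 and 85.7% of HuR replicate 2, whereas the 193 loci of 1 library held 0.0146%, 0.123%, 0.00686%, 0.00864% and 0.0786%. All 3 slices shared 231 loci and both HuR libraries shared 87, of which 85 also had a cluster in a slice. In HuR, 29 loci had a cluster where no slice had any site, and 1 of them, L223 (chr13:79963752-79963778, -, in the 5S pseudogene RNA5SP33 within an intron of RBM26), occurred in both replicates with 6 and 17 reads. L223 was chosen after its values were seen. The table of HuR replicate 1 held no rRNA cluster with fewer than 2 conversion locations, while 92 to 134 such clusters stood in each of the other PAR-CLIP tables.

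The second comparison asked how often reads of rRNA clusters carried conversions. Over all rRNA clusters there were 15.7 events per 100 reads in G20, 24.8 in G35, 20.5 in G45, 19.3 in HuR replicate 1, 23.7 in HuR replicate 2 and 65.1 in Total. All other clusters of the same libraries had 68.3, 84.3, 78.3, 60.8, 101 and 27.0. rRNA clusters were thus below the rest in each PAR-CLIP library and above it in Total. The slices averaged 20.3 and HuR 21.5 ± 3.14 (SD, n = 2), a difference of -1.18 events per 100 reads that was smaller than the spread between the HuR replicates (p = 1, two-sided exact permutation test over 5 libraries). The same order held per 100 sequenced thymidines, with 3.02 to 4.30 in the PAR-CLIP libraries and 12.8 in Total, against 10.7 to 16.7 and 5.06 for all other clusters. A sum over reads was carried by the deepest clusters, and the median rRNA cluster had 53.0 to 76.1 events per 100 reads in the PAR-CLIP libraries and 31.9 in Total.

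Events were concentrated in clusters whose copy has T where rRNA has C. Of the clusters aligned over their whole length, which held 95.1% to 99.9% of rRNA cluster reads in the PAR-CLIP libraries and 48.6% in Total, those with at least 1 such T/C difference held 96.6% of the conversion events of G20 on 56.2% of the reads. They held 88.8% of the events of G35 on 55.8% of the reads, and 95% on 63.8% in G45. In HuR replicate 1 they held 90.3% of the events on 29.5% of the reads, and in HuR replicate 2 88.3% on 59.3%. In Total they held 99.96% of the events, but also 93.3% of the reads. Clusters identical to rRNA had 1.24 events per 100 reads in G20, 6.66 in G35, 2.66 in G45, 1.90 in HuR replicate 1, 6.74 in HuR replicate 2 and 0.522 in Total. Clusters with a T/C difference had 27.0, 40.5, 31.8, 58.8, 36.7 and 141 in the same order, which was higher in all 6 libraries. The value of Total leaves out the leading cluster of L13, which was not aligned over its whole length. That cluster spans 1 difference and had 1.67 events per 100 reads on 2680120 reads. For the identical clusters the slices averaged 3.52 and HuR 4.32 ± 3.42 (SD, n = 2) events per 100 reads (p = 0.8, two-sided exact permutation test over 5 libraries).

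Events were more frequent in clusters with more T/C differences. With none, the median cluster had 5.803 events per 100 reads in G20, 7.79 in G35, 7.16 in G45, 8.77 in HuR replicate 1, 14.3 in HuR replicate 2 and 3.52 in Total. With 1 difference the medians were 74.9, 62.5, 63.5, 85.8, 74.5 and 70.0, and with 2 they were 100 in 5 libraries and 101 in G45. Clusters are not independent replicates, as several share a copy, so that these medians carry no test. Exceptions stood on both sides. In HuR replicate 2, 21 of 95 clusters without a T/C difference had over 50 events per 100 reads, and in G20, 56 of 156 clusters with 1 difference had 50 or fewer. How much of the conversion signal came from the copies' own bases and how much from 4SU was not tested.

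**Figure D5:**
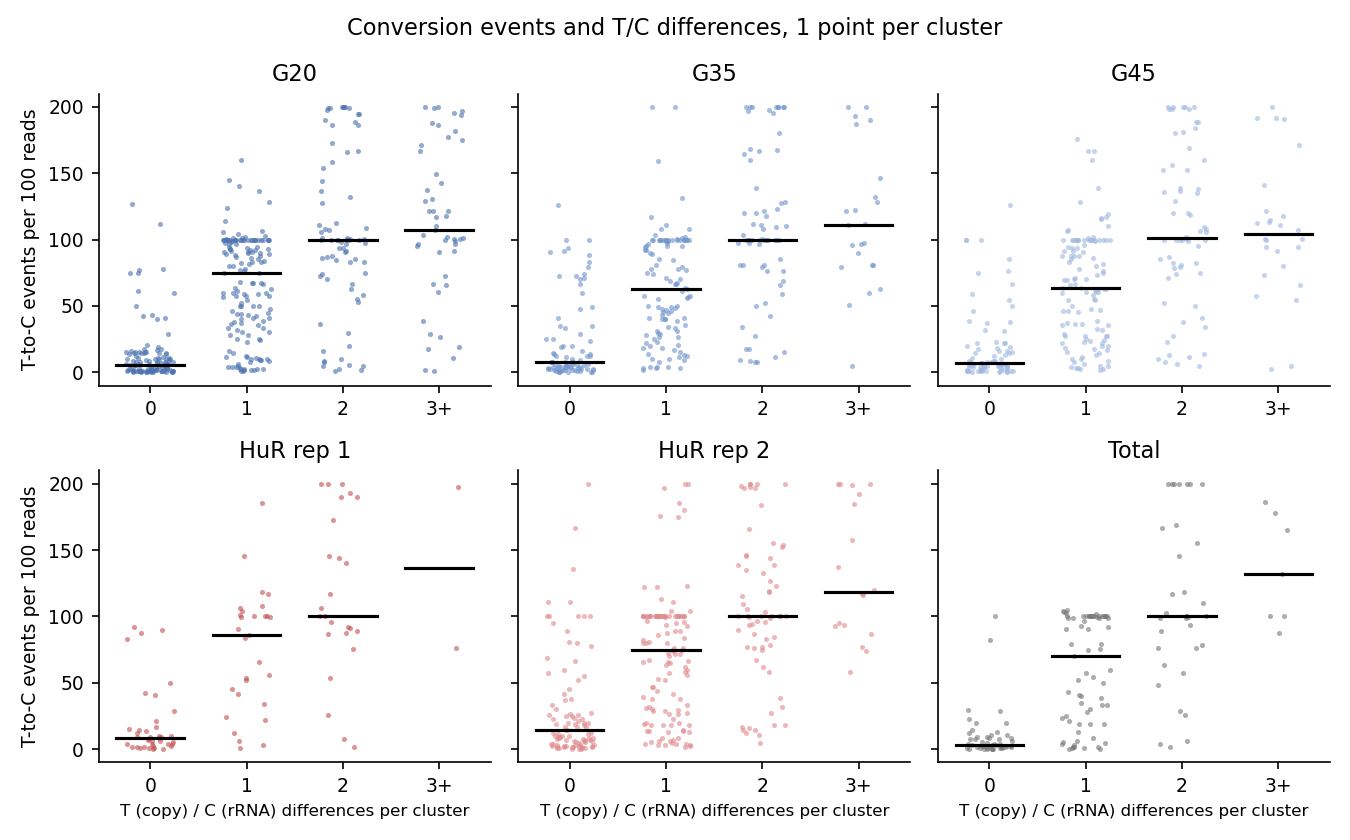
Each point is an rRNA cluster aligned over its whole length, with T-to-C events per 100 reads on the vertical axis and the number of T (copy) / C (rRNA) differences on the horizontal axis, 1 panel per library; black bars are medians. The medians are 3.52 to 14.3 without a difference and 100 or 101 with 2.

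Among the loci shown above, L34 carries T13C and T29C, written with the base of the copy, its position from the 5′ end of the printed sequence and the base of rRNA. It had 199 events per 100 reads in G20, 197 in G35, 198 in G45, 193 in HuR replicate 1, 197 in HuR replicate 2 and 200 in Total, so that nearly every read was counted with 2 conversions, the most the read filter allowed. L10 carries T40C alone and had 92.2, 94.2, 93.7, 85.8, 65.3 and 98.7 events per 100 reads in the same order. L9 carries T44C, T50C, T89C, T125C and T164C and had 65.8, 62.5, 54.1, 76.3, 58.2 and 37.9. The libraries lay within 193 to 200 at L34, where the read filter capped the measure, and further apart at L10 and L9.

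Within L6 the clusters that span the difference T31C of the printed stretch had more events per 100 reads than their neighbours in some libraries only. In HuR replicate 1 the cluster spanning it had 101 events per 100 reads on 159 reads, while the cluster that followed, without a T/C difference, had 0.475 on 9052 reads and another without a difference had 21.2 on 689 reads. In Total the cluster spanning it had 99.0 events per 100 reads on 1877967 reads, and the cluster near the start of the locus had 3.21. In G20 the spanning cluster had 35.7, against 2.67 and 2.49 for the others. In G35 the spanning cluster and the cluster before it, without a difference, had 29.4 and 29.1. In HuR replicate 2 the order was the reverse, with 18.4 on 4039 reads in the spanning cluster and 41.4 on 22962 reads in the cluster before it. In G45 the spanning cluster had 27.2, against 6.22 for the other. Per 100 sequenced thymidines, however, the spanning cluster stood highest in every library. It had 6.65 against 3.33 for the cluster before it in G35, 6.26 against 4.47 in HuR replicate 2 and 2.90 against 1.15 in G45.

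Among the named loci, copies without T/C differences had few events per read. L2 had 1.17 to 2.58 events per 100 reads in the PAR-CLIP libraries and 7.76 in Total, L4 had 1.15 to 3.83 and 7.43, and L3 had 1.11 to 6.22 and 2.24. L8 ranged from 0.213 in HuR replicate 1 to 12.4 in G35. The leading cluster of L12 in Total had 0.225 on 3369350 reads. It lay almost wholly beyond the aligned part of that locus, so whether it spans such a difference was not determined. A T/C difference did not always come with many events per read. L5 carries T42C and T89C and had 4.78 in G20, 7.52 in G35, 6.61 in G45, 6.29 in HuR replicate 1, 8.45 in HuR replicate 2 and 0.462 in Total, and L1, with 2 such differences, had 7.45 to 12.6 in all libraries except HuR replicate 1, which had 53.8 on 156 reads. The leading cluster of L13 in Total spans 1 difference and had 1.67 events per 100 reads on 2680120 reads. Per 100 sequenced thymidines, L1 had 4.99 to 11.6 events and L5 had 2.66 to 9.15 in the PAR-CLIP libraries. There L2 and L4 had 0.133 to 0.490, and L8 had 0.248 to 2.94. In Total L1 had 2.28, L5 0.450, the leading cluster of L13 0.210, L2 0.995 and L4 0.941.

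Over all aligned loci 19548 bases were compared and 1115 differed. Of these, 554 (49.7%) were T in the copy against C in rRNA and 244 (21.9%) were A against G, while the reverse changes, C against T and G against A, numbered 44 and 45. Per 100 rRNA bases of the kind, T replaced C at 11.3 and C replaced T at 1.05. At least 1 T/C difference stood in 328 of the 491 matched loci. Clusters enter the tables only with conversions, so that these counts describe the clusters that passed, not all copies in the genome.

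The sequences of rRNA clusters resembled each other across libraries. G made up 29.2% to 30.6% of the bases of an average rRNA cluster in the 6 libraries, against 32.9% in G20, 27.1% in G35, 26.2% in G45, 14.6% and 15.3% in HuR and 9.40% in Total for the other clusters. T made up 24.4% to 26.5%, against 39.7% and 40.4% for the other clusters of the HuR libraries. Fewer rRNA sites than other sites ended in G, the base after which RNase T1 cuts. The base taken was the last of the whole site, which all its reads make up, not the last of each read. These values therefore do not measure cutting, and whether they follow from the depth of the sites was not tested. The shares were 50.9% against 73.7% in G20, 33.0% against 49.3% in G35, 41.1% against 46.0% in G45, 40.2% against 85.2% in HuR replicate 1, 46.0% against 93.3% in HuR replicate 2 and 57.0% against 95.2% in Total. Weighted by reads, the shares were 39.6% against 44.5% in G20, 20.0% against 28.3% in G35, 16.6% against 47.6% in HuR replicate 1, 27.4% against 88.8% in HuR replicate 2 and 32.0% against 83.3% in Total, while in G45 the order turned, with 49.9% against 28.2%.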

How the data were processed

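The authors sequenced the libraries on an Illumina HiSeq, mapped the reads to hg19 with Bowtie (versions not given in the sources used here) and used PARalyzer to group those placed at 1 position with 0 to 2 T-to-C conversions. The deposited values are whole-number counts of reads, conversion locations, conversion events and, for clusters, unconverted thymidines. The authors did not normalize them, and removal of PCR duplicates is not stated. A deposited mode score of each cluster was not used.

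Members were the rows annotated rRNA and, in Total, overlapping clusters on the same strand. The members, the named loci (the 10 with the largest mean share of rRNA cluster reads over the 5 PAR-CLIP libraries and the 3 with most reads in each library) and the tests were chosen with earlier results of these data known. Cluster sequences equalled GRCh37 at every member off the mitochondrial chromosome. Members sharing 1 bp were merged. Loci were aligned with blastn 2.17.0 (word size 7, E-value up to 0.001), and unaligned ends of up to 10 nt were compared without gaps. For folds, a library at 0 was set to 3 reads. Intervals are 95% Wilson intervals, cover counting error only, and treat reads without molecular identifiers as independent. Permutation tests used scipy 1.17.1 and measure the spread between these libraries, which may be technical. Functions were tested on simulated data. Alternatives covered the read source, denominator, cluster minimum, merging, normalization, fold, alignment and replicates.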

Additional observations from a re-analysis of the deposited data

Results flagged for a closer look

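Reads on the strand opposite to the rRNA loci belong to no comparison above and exceeded 3 reads in each library. They numbered 73 in G20, 114 in G35, 112 in G45, 27 in HuR replicate 1, 362 in HuR replicate 2 and 28309 in Total. Relative to the sense reads of the sites at these loci they were 0.000216% in G20, 0.00797% in G35, 0.00589% in G45, 0.0228% in HuR replicate 1, 0.0370% in HuR replicate 2 and 0.130% in Total. In Total the largest such sites lay opposite L3, with 7651 reads and 0.418 events per 100 reads, and opposite L6, with 5911 reads and 57.1 events per 100 reads. Their source was not tested.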

How the results depend on the processing

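The slices' excess over HuR in share of reads, 37.4 points, stayed between 33.9 and 43.3 under the 5 other settings and between 36.6 and 38.2 without HuR replicate 1 or 2. The difference in conversion events, -1.18 per 100 reads, ranged from -3.40 to 1.04 when HuR replicate 1 or 2 was left out and turned positive without replicate 2. It was -5.36 as a median over clusters, -3.20 without the leading locus of each library and -2.94 by sites. Loci present in all 5 PAR-CLIP libraries numbered 273, not 81, when any site counted, 81 to 213 without HuR replicate 2 or 1 (chosen after seeing the data), and 65 of 383 when members within 50 bp were merged. The share of rRNA loci higher in G20 than in G35 or G45 was 52.1% and 53.8% when scaled to reads outside rRNA clusters, and 41.0% and 41.6% at 2-fold. At 2-fold it was 22.0% for G35 over G45 and 10.9% for HuR replicate 1 over 2. It was 12.9% for G35 over G45 with loci not joined by sites, a setting chosen after seeing the data. The 24 slice-against-HuR shares under these 3 settings and with no minimum of reads stayed within 1.5 times, G20 over HuR replicate 1 moving from 70.3% to 47.5% with no minimum. Requiring 90% identity over 80% of a locus lowered the 28S share to 88.3% in G20, 71.3% in G35, 80.6% in G45 and 30.5% in Total, where L12 aligned over 63.3% of its length. Counted by sites rather than clusters, the share of reads was 87.6% in G20 and 60.8% in Total. No paired analysis was possible because only HuR has more than 1 replicate. Single slices, unequal rRNA mappability and unstated duplicate removal limit every value.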
